A study of Arabidopsis thaliana with 18 samples.

Results

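The CC-type glutaredoxins are small plant thiol proteins with paired cysteines in the active site, and 10 of their Arabidopsis genes are described here across nitrogen regimes and across lines with more or less LBD37 or LBD38. The 10 genes were taken from a list of loci (GRX480 is AT1G28480), and each was read by the single ATH1 probe set for which the platform's gene table lists that gene alone. They are 10 of 13355 genes with such a probe set, and 10 of the 22746 probe sets tested. The rule that lists them names loci and uses no measured value, but the list was drawn up with earlier results of these data known, so the counts below describe these genes and do not come from a blind choice.

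The 18 arrays held total RNA of whole Col-0 seedlings aged 9 days, in 6 groups of 3 biological replicates. LBD37 and LBD38 are LATERAL ORGAN BOUNDARIES DOMAIN transcription factors known to repress nitrogen-responsive genes. Seedlings overexpressing LBD37 (LBD37OX), seedlings overexpressing LBD38 (LBD38OX) and wild type (WT) were harvested after 7 days in full nutrition (FN, 4 mM KNO3) and 2 days in medium with no nitrogen (noN). The lbd37 mutant (lbd37-1 in the series' design text) and the lbd38 mutant, both T-DNA insertion lines, and wild type were harvested after 9 days in FN. Each genotype appears under its regime only, so no line was measured both with and without nitrogen apart from wild type. The promoter driving the overexpression and the number of independent lines are not given in the sources used here, and the labels give both a liquid culture and agar plates followed by wells for the first 7 days. No probe set with a single listed gene is listed for LBD37 or LBD38, so the targeted genes could not check the genotype labels and are not analysed here.

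As background, CC-type glutaredoxins occur in land plants only, and many bind TGA bZIP transcription factors and act as transcriptional co-regulators. Several carry nitrogen signals in Arabidopsis. AT2G47880 and AT1G06830 encode CEP DOWNSTREAM (CEPD) polypeptides, and AT3G62960 and AT2G30540 encode CEPD-like polypeptides; polypeptides of this kind are made in the shoot phloem under nitrogen demand, move to the root and raise nitrate uptake. AT4G15680 belongs to a tandem group on chromosome 4 whose nitrate-induced members restrain primary root growth. GRX480 is induced by salicylate, binds TGA factors and represses the jasmonate-responsive defensin gene PDF1.2 when overexpressed. The RefSeq gene table names only GRX480 among the 10 genes and gives the others by locus, so these roles come from general knowledge and not from the files.

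Values are RMA signals on a log2 scale, and levels are compared between groups for 1 probe set at a time. A gene was called changed when limma's adjusted p was under 0.05, adjusted over all 22746 probe sets. Array medians lay between 6.88 and 7.06, lower quartiles between 5.19 and 5.34, and correlations between replicates of a group between 0.988 and 0.998. LBD37OX replicate 3 had a narrower spread of signals (interquartile range 2.9) than the other 17 arrays (3.07 to 3.29). In whole seedlings, fewer cells of a type and less RNA per cell cannot be told apart.

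Nitrogen depletion in wild type divided the family. After 2 days without nitrogen, 4 of the 10 genes were higher and 6 were lower than in replete wild type, so all 10 were called. Of all probe sets, 50.2% were called in this comparison, 23.5% higher and 26.6% lower, so a call alone set a gene little apart. By size, 5 of the 10 genes changed at least 2-fold, against 10.1% of all probe sets. The median change was -0.3 over the 10 genes and -0.07 over all probe sets.

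The pair of mobile-signal genes AT2G47880 and AT3G62960 rose most. AT2G47880 read 10.63, 10.61 and 10.49 in depleted wild type, against 7.75, 7.99 and 7.74 in replete wild type. All 3 depleted arrays stood far above all 3 replete arrays, and the gene was 6.74-fold higher in depleted wild type (log2 difference 2.75 ± 0.27 SE, adjusted p = 1.17e-07). AT3G62960 read 11.00, 10.60 and 10.60 in depleted wild type, against 7.99, 8.47 and 8.19 in replete wild type. Its arrays were again clearly separated, with a 5.73-fold higher signal in depleted wild type (log2 2.52 ± 0.25 SE, adjusted p = 1.28e-07). The other CEPD gene, AT1G06830, also rose but moved far less. It read 9.63, 9.58 and 9.55 in depleted wild type, against 8.70, 8.90 and 8.78 in replete wild type. The groups did not overlap, and the difference was 1.74-fold (log2 0.80 ± 0.12 SE, adjusted p = 2.85e-05). AT2G30540, the other CEPD-like gene, went the opposite way. It read 6.33, 6.46 and 6.67 in depleted wild type, against 6.87, 7.19 and 6.67 in replete wild type. The highest depleted and the lowest replete array nearly touched, and the log2 difference was -0.42 (SE 0.15, adjusted p = 0.0235). That call was lost without depleted replicate 1 (adjusted p = 0.102), depleted replicate 2 (adjusted p = 0.0608) or replete replicate 2 (adjusted p = 0.142).

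GRX480, the salicylate-inducible TGA partner, was the remaining gene that rose. It read 8.87, 8.43 and 8.44 in depleted wild type, against 6.97, 6.63 and 6.68 in replete wild type. Every depleted array lay above every replete array, by 3.54-fold on average (log2 1.82 ± 0.17 SE, adjusted p = 7.43e-08).

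The steepest falls were in AT5G18600 and AT4G15680. AT5G18600 read 6.66, 6.37 and 6.51 in depleted wild type, against 9.44, 9.95 and 9.65 in replete wild type. That is an 8.99-fold lower signal in depleted wild type with no overlap (log2 -3.17 ± 0.13 SE, adjusted p = 5.68e-12). AT4G15680, from the tandem group on chromosome 4, read 6.04, 5.93 and 5.47 in depleted wild type, against 8.59, 8.69 and 8.43 in replete wild type. It was 6.76-fold lower in depleted wild type (log2 -2.76 ± 0.20 SE, adjusted p = 2.64e-09), and its groups were as cleanly separated. AT3G62930 fell moderately, with 5.89, 6.26 and 6.0 in depleted wild type and 6.32, 6.84 and 7.18 in replete wild type (log2 -0.73 ± 0.20 SE, adjusted p = 0.00536). Its replete replicate 1 lay just above the highest depleted array.

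AT1G03020 and AT3G62950 lay below the lower quartile of their array on all 18 arrays, where a change in level is hard to read. AT1G03020 averaged 3.88 ± 0.06 in depleted wild type and 4.11 ± 0.12 in replete wild type (SD, n = 3 each; log2 difference -0.22, adjusted p = 0.0273). AT3G62950 averaged 3.58 ± 0.15 in depleted wild type and 3.95 ± 0.30 in replete wild type (SD, n = 3 each; log2 difference -0.38, adjusted p = 0.0153). AT3G62950 was the only gene of the 10 whose depleted and replete arrays overlapped; over all probe sets, 58.3% did not overlap. The call of AT1G03020 was lost without depleted replicate 1 (adjusted p = 0.0518) or 3 (0.0943), or replete replicate 2 (0.112) or 3 (0.0765), and when quantile normalization was repeated its difference was -0.14 (adjusted p = 0.162). The call of AT3G62950 was lost without depleted replicate 3 (adjusted p = 0.0804), replete replicate 2 (0.0647) or replete replicate 3 (0.0946).

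**Figure D1:**
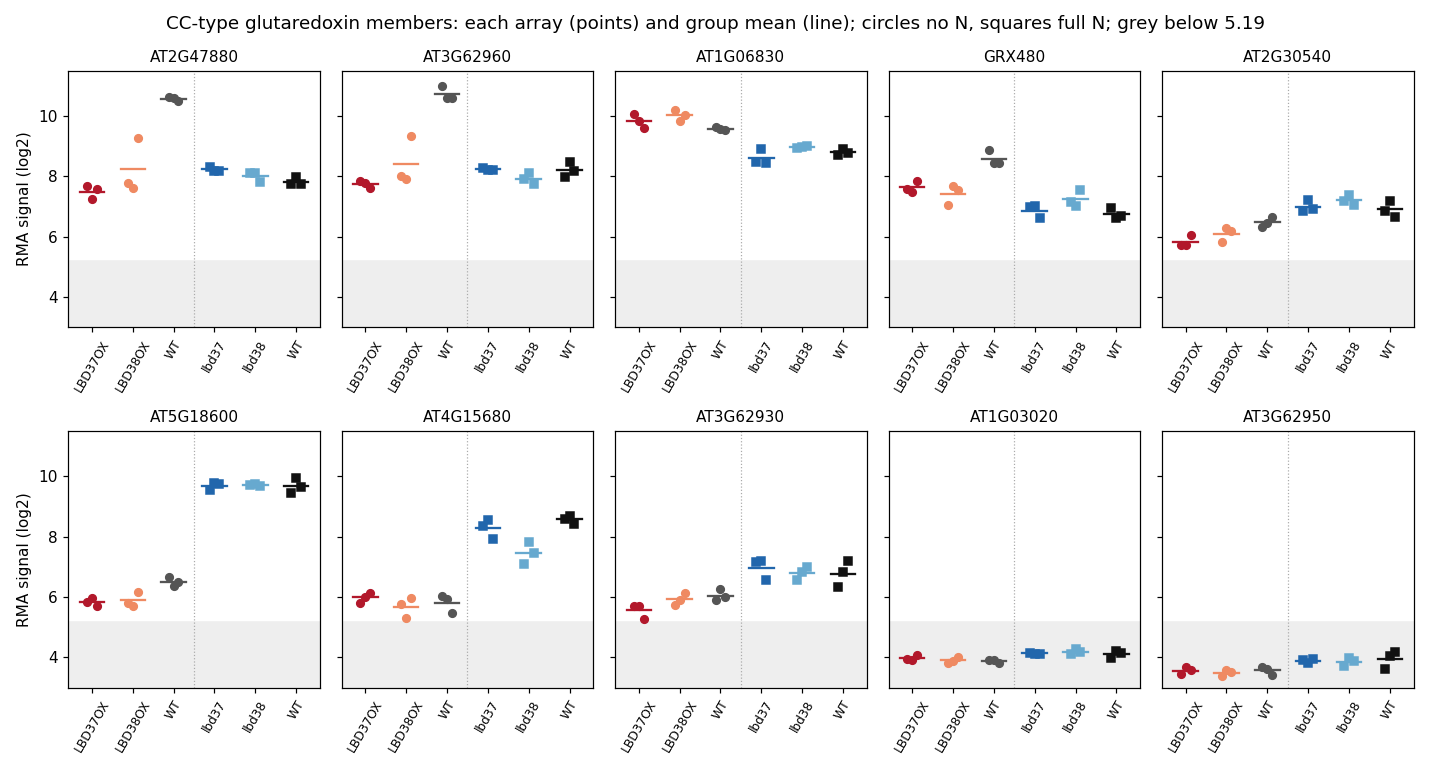
RMA signal (log2, vertical axis) of the 10 genes, 1 panel each, with a point for each array and a line for each group mean; circles are arrays without nitrogen, squares arrays with full nitrogen, and grey marks signals below 5.19, the lowest lower quartile of any array. AT2G47880 and AT3G62960 stand near 10.6 in depleted wild type alone, AT5G18600 and AT4G15680 drop in all 3 groups without nitrogen, and AT1G03020 and AT3G62950 stay in the grey zone.

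To see how far overexpression of either LBD factor altered the depleted state, each overexpresser was compared with wild type, both without nitrogen. In LBD37OX, 5 of the 10 genes were lower and 0 higher, while 18.5% of all probe sets were called, 11.3% lower and 7.21% higher. In LBD38OX, 4 were lower and 1 higher, while 17.9% of all probe sets were called, 8.66% lower and 9.26% higher. At least 2-fold changes were found for 2 genes in LBD37OX (1.69% of all probe sets) and for 3 in LBD38OX (1.89%). The median change over the 10 genes was -0.57 in LBD37OX and -0.27 in LBD38OX, against 0.01 over all probe sets in each. Depleted wild type is shared by both of these comparisons and by the depletion comparison, and their values are only set side by side.

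Both strongly induced mobile-signal genes were low in the overexpressers. AT2G47880 read 7.69, 7.24 and 7.57 in LBD37OX, against the 10.49 to 10.63 of depleted wild type. It was thus 8.46-fold lower in LBD37OX (log2 -3.08 ± 0.27 SE, adjusted p = 5.35e-07), with every array well below wild type. In LBD38OX it read 7.79, 7.62 and 9.28, a 5.09-fold lower signal than in depleted wild type (log2 -2.35 ± 0.27 SE, adjusted p = 1e-05). That SE uses a spread shared by all groups, while the SD within LBD38OX was 0.91. Replicates 1 and 2 of LBD38OX were close to LBD37OX, whereas replicate 3 lay between them and wild type. AT3G62960 behaved the same way on the same arrays. It read 7.84, 7.78 and 7.62 in LBD37OX, which was 7.94-fold lower than in depleted wild type (log2 -2.99 ± 0.25 SE, adjusted p = 3e-07). In LBD38OX it read 8.01, 7.92 and 9.35, which was 4.97-fold lower than in depleted wild type (log2 -2.31 ± 0.25 SE, adjusted p = 5.85e-06). Again LBD38OX replicate 3 was the high one. Without that array the differences of LBD38OX from wild type were -2.87 for AT2G47880 and -2.77 for AT3G62960, or 7.33-fold and 6.84-fold. Under other settings these differences were as small as -2.01 and -2.04, and both stayed called.

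Of the other CEPD-type genes, AT1G06830 was not lowered in either line, and AT2G30540 was lowered in LBD37OX by less than AT2G47880 and AT3G62960. AT1G06830 read 10.07, 9.85 and 9.59 in LBD37OX, against 9.63, 9.58 and 9.55 in depleted wild type. LBD37OX replicate 3 lay within the wild-type range, and the difference was not called (log2 0.25, 95% interval -0.01 to 0.51, adjusted p = 0.172), although it was without that array (0.37, adjusted p = 0.0453) and when quantile normalization was repeated (0.36, adjusted p = 0.0307). In LBD38OX the gene read 10.19, 9.83 and 10.05, above all wild-type arrays (log2 0.43 ± 0.12 SE, 1.35-fold, adjusted p = 0.0196). That call was lost without wild-type replicate 2 or 3 or LBD38OX replicate 1 or 3, with adjusted p up to 0.118. AT2G30540 read 5.72, 5.73 and 6.06 in LBD37OX, against 6.33, 6.46 and 6.67 in depleted wild type. The groups were separate, and it was 1.57-fold lower in LBD37OX (log2 -0.66 ± 0.15 SE, adjusted p = 0.00465). In LBD38OX it read 5.82, 6.29 and 6.18, also below wild type, but was not called (log2 -0.39, 95% interval -0.71 to -0.08, adjusted p = 0.0788), although it was with array weights (adjusted p = 0.0404).

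GRX480 was lowered in both overexpressers. It read 7.58, 7.48 and 7.85 in LBD37OX, against 8.87, 8.43 and 8.44 in depleted wild type, a 1.93-fold lower signal (log2 -0.95 ± 0.17 SE, adjusted p = 0.000874). In LBD38OX it read 7.05, 7.67 and 7.54, a 2.24-fold lower signal (log2 -1.16 ± 0.17 SE, adjusted p = 0.000121). No array of either overexpresser reached the wild-type arrays.

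Of the genes that depletion lowered, AT5G18600 was lowered further in both lines and the tandem gene AT4G15680 was not called in either. AT5G18600 read 5.85, 5.98 and 5.69 in LBD37OX, against 6.66, 6.37 and 6.51 in depleted wild type (log2 -0.67 ± 0.13 SE, adjusted p = 0.00145). In LBD38OX it read 5.81, 5.69 and 6.18 (log2 -0.62 ± 0.13 SE, adjusted p = 0.00246). All 6 overexpresser arrays lay below the lowest wild-type array. For AT4G15680 the arrays of all 3 depleted groups overlapped, and the log2 difference from wild type was 0.17 in LBD37OX (95% interval -0.25 to 0.59) and -0.14 in LBD38OX (95% interval -0.56 to 0.28). Its means in these groups, 5.67 to 5.99, lay not far above the lower quartiles of the arrays (5.19 to 5.34). A further fall may therefore have been hard to read. AT3G62930 was not called in LBD37OX (log2 -0.48, adjusted p = 0.108) or LBD38OX (log2 -0.12, adjusted p = 0.801). For the dim genes AT1G03020 and AT3G62950, the differences lay between -0.08 and 0.09.

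In LBD37OX the arrays of 6 genes did not overlap wild type, against 31.5% of all probe sets, and the same number was found in LBD38OX, against 35.5%. LBD37OX replicate 3 stood apart in its spread of signals. Without it, 6 genes were called in LBD37OX, 5 lower and 1 higher, against 17% of all probe sets. LBD38OX replicate 3 stood apart for AT2G47880 and AT3G62960. Without it, 4 genes were called in LBD38OX, all lower, against 15.2% of all probe sets.

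Some markers of plant parts also differed between the groups. Of 6 leaf and stomatal-lineage markers listed 5 were measured, and in depleted wild type 4 were lower and 1, FMA, was higher (log2 0.24, adjusted p = 0.0179) than in replete wild type. In each overexpresser 2 were higher than in depleted wild type and 0 lower: SPCH in both, with FMA in LBD37OX and LHCB4.1 in LBD38OX. The FMA call was lost under several settings, with adjusted p up to 0.172. The LHCB4.1 call was lost without wild-type replicate 1 (adjusted p = 0.111) or LBD38OX replicate 1 (0.1). Some settings added calls of LHCB4.1 in LBD37OX and YAB3 in both lines as higher, and of RCA in LBD37OX as lower. SPCH, a regulator that starts the stomatal lineage, was higher by 1.35 in LBD37OX and by 1.46 in LBD38OX, whereas RCA, the Rubisco activase gene, was not called in either (-0.15 in LBD37OX and 0.05 in LBD38OX). The mean of the 5 markers lay between 9.30 and 9.42 on the LBD37OX arrays and between 9.39 and 9.51 on the LBD38OX arrays, against 8.83 to 9.11 in depleted wild type. Depleted wild type was in turn below the 9.60 to 9.68 of replete wild type. Of 4 root markers, all measured, 3 were higher and 1, PYK10, was lower (log2 -1.27, adjusted p = 2.93e-09) in depleted than in replete wild type. In LBD37OX 0 root markers were higher and 2 lower than in depleted wild type, and in LBD38OX limma called none. The 2 were EXPA7 and EXPA18. Both calls were lost under some settings, with adjusted p up to 0.0856 for EXPA7 and 0.221 for EXPA18. In LBD38OX both were called lower without wild-type replicate 3 (adjusted p = 0.0188 and 0.0253). The mean of the root markers lay between 8.79 and 9.08 in LBD37OX and between 9.01 and 9.27 in LBD38OX, against 9.04 to 9.59 in depleted wild type, which reached above the 9.01 to 9.13 of replete wild type. None of 5 listed phloem markers had a probe set of its own, and none of the measured markers had a group mean below 5.61. The part of such shifts in the changes of the glutaredoxin genes was not tested.

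**Figure D2:**
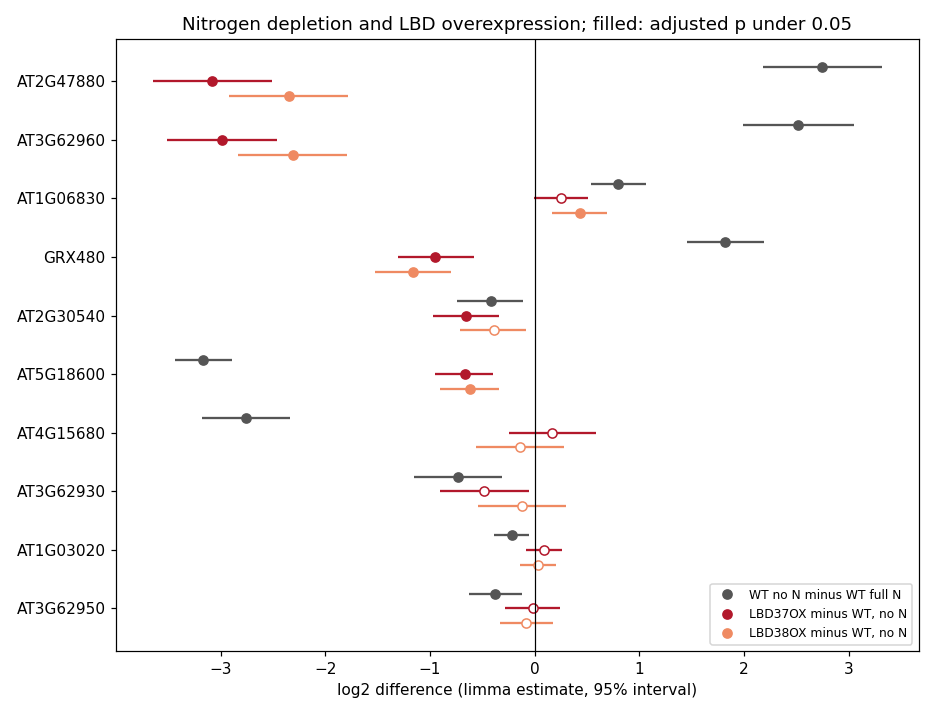
Log2 differences (horizontal axis, limma estimates with 95% intervals) of the 10 genes for wild type without minus with nitrogen (grey), LBD37OX minus wild type without nitrogen (red) and LBD38OX minus wild type without nitrogen (orange); filled points were called. AT2G47880, AT3G62960 and GRX480 lie right of 0 for depletion and left of 0 in both overexpressers, and AT1G06830 lies right of 0 in all 3.

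Set directly against each other, LBD37OX and LBD38OX differed in 0 of the 10 genes, and limma called 0.0484% of all probe sets. At an unadjusted p under 0.05 there were 3151 of all 22746 probe sets and 2 of the 10 genes. The 2 were AT2G47880 (LBD37OX minus LBD38OX -0.73, 95% interval -1.30 to -0.16) and AT3G62960 (-0.68, 95% interval -1.20 to -0.15), each with an adjusted p of 0.295. These differences were -0.21 and -0.22 without LBD38OX replicate 3, the array that was high for both genes. Under other settings they reached -1.04 for AT2G47880 and -0.93 for AT3G62960, and neither was called under any setting. For GRX480 the difference was 0.22 (95% interval -0.15 to 0.58).

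A further comparison placed each depleted overexpresser beside replete wild type, which asks where the lines stood relative to the level with nitrogen. In depleted LBD37OX 2 genes were higher and 5 lower than in replete wild type (39.4% of all probe sets were called, 17.4% higher and 22.1% lower), and depleted LBD38OX had the same counts (40.6% called, 20.2% higher and 20.5% lower). AT2G47880 and AT3G62960 were not called. For AT2G47880 the difference from replete wild type was -0.33 in LBD37OX (95% interval -0.90 to 0.24) and 0.40 in LBD38OX (95% interval -0.17 to 0.98). For AT3G62960 it was -0.47 in LBD37OX (95% interval -1.0 to 0.06) and 0.21 in LBD38OX (95% interval -0.32 to 0.73). The intervals leave room for changes of up to about 1 on the log2 scale, so the levels are not shown to be equal. Without LBD38OX replicate 2 the AT2G47880 difference was 0.71 and was called (adjusted p = 0.044), and with limma fitted to LBD37OX and replete wild type alone the AT3G62960 difference was called (adjusted p = 0.0242).

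GRX480 remained above replete wild type, by 1.84-fold in depleted LBD37OX (log2 0.88, adjusted p = 0.000466) and 1.58-fold in depleted LBD38OX (log2 0.66, adjusted p = 0.00512). AT1G06830 stood 2.06-fold above replete wild type in depleted LBD37OX (log2 1.05, adjusted p = 1.86e-06) and 2.35-fold in depleted LBD38OX (log2 1.23, adjusted p = 2.98e-07). These were the 2 genes called higher in each line. AT5G18600 was 14.3-fold lower in depleted LBD37OX (log2 -3.84, adjusted p = 5.68e-13) and 13.8-fold lower in depleted LBD38OX (log2 -3.79, adjusted p = 8.38e-13) than in replete wild type. AT4G15680 was 5.99-fold lower in depleted LBD37OX (log2 -2.58, adjusted p = 1.06e-08) and 7.44-fold lower in depleted LBD38OX (log2 -2.89, adjusted p = 3.29e-09). AT3G62930, AT2G30540 and AT3G62950 completed the 5 genes called lower in each line, and AT3G62950 in LBD37OX lost its call without LBD37OX replicate 1 (adjusted p = 0.0633) or replete replicate 2 (0.064) or 3 (0.094).

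With full nitrogen, the mutants asked the converse question, what less LBD37 or LBD38 does to the family. In the lbd37 mutant 0 of the 10 genes were called by limma, against 0.189% of all probe sets. Of the 10 genes 0 had an unadjusted p under 0.05, against 1688 of all 22746 probe sets. The estimates of the 10 genes lay between -0.28 for AT4G15680 and 0.41 for AT2G47880. AT2G47880 read 8.31, 8.19 and 8.19 in lbd37, against 7.75, 7.99 and 7.74 in replete wild type. The arrays did not overlap, yet the interval of the difference spanned -0.17 to 0.98 (adjusted p = 0.809). That interval uses a spread shared by all groups. For this gene the SD was 0.07 in lbd37 and 0.14 in replete wild type, but 0.91 in LBD38OX. Under the other settings limma's adjusted p was 0.123 or higher.

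In the lbd38 mutant 1 of the 10 genes was called, AT4G15680, and it was lower; of all probe sets 1.19% were called, 0.598% lower. AT4G15680 read 7.08, 7.82 and 7.45 in lbd38, against 8.59, 8.69 and 8.43 in replete wild type. All 3 mutant arrays lay below the wild type, and the signal was 2.17-fold lower in lbd38 (log2 -1.12 ± 0.20 SE, adjusted p = 0.00749). Without lbd38 replicate 1, the lowest array, the difference was -0.93 and was no longer called (adjusted p = 0.0547). GRX480 read 7.16, 7.03 and 7.54 in lbd38, against 6.97, 6.63 and 6.68 in replete wild type. Every lbd38 array exceeded the wild type, but the difference was not called (log2 0.49, 95% interval 0.12 to 0.85, adjusted p = 0.238). The mobile-signal genes were not called: the differences were 0.18 for AT2G47880 (95% interval -0.39 to 0.75), -0.29 for AT3G62960 (-0.82 to 0.23), 0.18 for AT1G06830 (-0.08 to 0.44) and 0.30 for AT2G30540 (-0.02 to 0.61). On the lbd38 arrays the mean of the leaf and stomatal markers lay between 9.43 and 9.58, against 9.60 to 9.68 in replete wild type, and that of the root markers between 9.18 and 9.42, against 9.01 to 9.13. On the lbd37 arrays these means lay between 9.60 and 9.73 for leaf and between 8.88 and 8.98 for root markers. No single leaf or root marker was called in either mutant. Their part in the AT4G15680 difference was not tested.

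AT4G15680 was also the 1 gene of 10 that differed between the mutants, while 2.6% of all probe sets were called, 1.5% higher in lbd37. It read 8.37, 8.56 and 7.92 in lbd37, against 7.08, 7.82 and 7.45 in lbd38. The lbd37 arrays lay above the lbd38 arrays, the closest pair being lbd37 replicate 3 and lbd38 replicate 2, and the difference was 1.79-fold (log2 0.84 ± 0.20 SE, adjusted p = 0.0303). The call was lost without lbd37 replicate 1 (adjusted p = 0.121), lbd37 replicate 2 (0.173), lbd38 replicate 1 (0.181) or lbd38 replicate 3 (0.0976).

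The neighbours of AT4G15680 were measured too. In the TAIR10.1 gene table, AT4G15660, AT4G15670, AT4G15680, AT4G15690 and AT4G15700 follow each other on chromosome 4 with no other protein-coding gene between them, and all but AT4G15670 had a probe set of their own. Near-identical copies can share hybridization, so these readings may not be independent. In depleted wild type AT4G15690 was 6.66-fold lower (log2 -2.74, adjusted p = 9.98e-08), AT4G15700 6.15-fold lower (log2 -2.62, adjusted p = 1.04e-10) and AT4G15660 3.82-fold lower (log2 -1.93, adjusted p = 7.1e-07) than in replete wild type, and all 3 then lay below the lower quartile of every depleted array. In that range the signal may no longer follow the transcript, so these folds may understate the falls, and a further fall in the overexpressers could not have been read. The log2 differences of the 3 genes between the overexpressers and depleted wild type, from -0.26 to 0.47, were not called. In lbd38, AT4G15700 read 4.94, 5.53 and 5.40, against 5.81, 6.29 and 5.95 in replete wild type. It was called lower (log2 -0.73, adjusted p = 0.0143), but not without lbd38 replicate 1 (-0.55, adjusted p = 0.085) or replete replicate 2 (-0.59, adjusted p = 0.0872), nor with those groups fitted alone (adjusted p = 0.0671). AT4G15690 (log2 -0.82, adjusted p = 0.18) and AT4G15660 (log2 -0.63, adjusted p = 0.227) were not called in lbd38, although AT4G15690 was without lbd38 replicate 2 (adjusted p = 0.0087) and AT4G15660 without replete replicate 3 (adjusted p = 0.048). The 4 measured genes were each lowest in lbd38 replicate 1 among the arrays with full nitrogen. Between the mutants, AT4G15700 was 1.76-fold higher in lbd37 than in lbd38 (log2 0.81, adjusted p = 0.00337). AT4G15690 was 2.04-fold higher in lbd37 (log2 1.03, adjusted p = 0.047), a call lost without any 1 of 5 of the 6 mutant arrays, all but lbd38 replicate 2, with adjusted p up to 0.259, and also lost, with adjusted p between 0.0506 and 0.0781, with the replicate block, repeated quantile normalization, median centring, the compared groups alone, trend and robust eBayes, and single-gene probe sets.

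**Figure D3:**
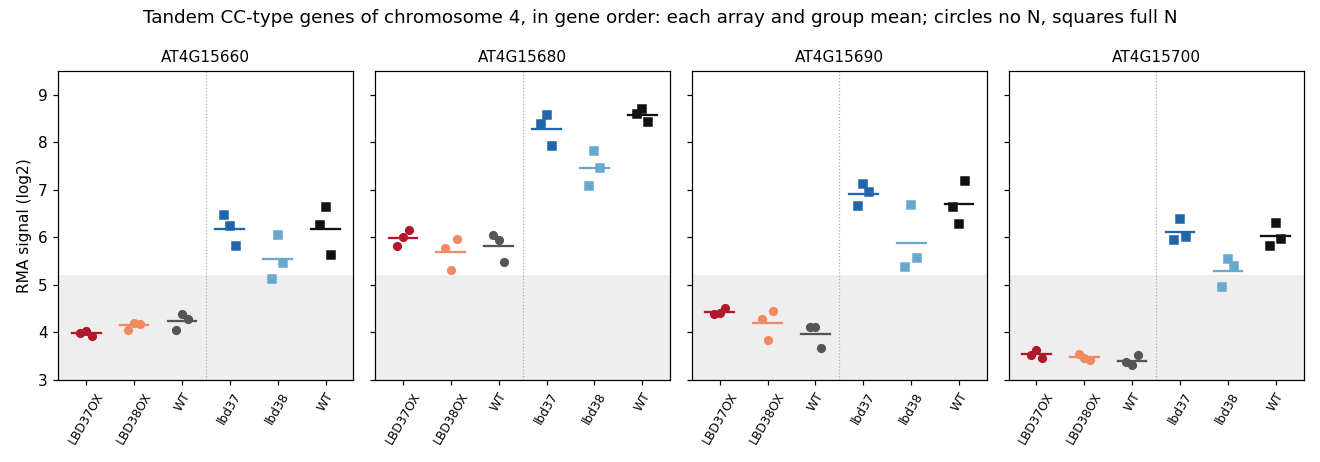
RMA signal (log2, vertical axis) of the 4 measured tandem genes of chromosome 4 in gene order, with points for arrays and lines for group means; circles are without nitrogen, squares with full nitrogen, grey marks signals below 5.19. All 4 are low in every group measured without nitrogen, and with full nitrogen the lbd38 mean is the lowest in each panel.

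Another neighbourhood held genes that did not move together. AT3G62950 and AT3G62960 are adjacent on chromosome 3, and AT3G62930 lies near them, with 2 protein-coding genes between it and AT3G62960. In depleted wild type AT3G62960 was 5.73-fold higher, while AT3G62930 was 1.66-fold lower and AT3G62950 stayed below the lower quartile.

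Across the 6 groups, the group means spanned 3.88 on the log2 scale for AT5G18600, 3.08 for AT2G47880, 2.99 for AT3G62960, 2.90 for AT4G15680 and 1.82 for GRX480. The span was 1.40 for AT1G06830 and AT3G62930 and 1.38 for AT2G30540, and it was 0.31 for AT1G03020 and 0.45 for AT3G62950. Both strongly induced mobile-signal genes had depleted wild type at the top, at 10.58 ± 0.08 for AT2G47880 and 10.74 ± 0.23 for AT3G62960 (SD, n = 3), and LBD37OX at the bottom, at 7.50 ± 0.23 for AT2G47880 and 7.75 ± 0.11 for AT3G62960. The 4 groups between overlapped their neighbours among these 4 in level. For AT2G47880 all LBD37OX arrays (7.24 to 7.69) lay below all replete wild-type arrays (7.74 to 7.99), the next group up. For AT3G62960 the LBD37OX arrays overlapped those of lbd38, the next group up. For GRX480 the order ran from depleted wild type (8.58 ± 0.25) through LBD37OX (7.64 ± 0.19) and LBD38OX (7.42 ± 0.33) to lbd38 (7.25 ± 0.26), lbd37 (6.87 ± 0.23) and replete wild type (6.76 ± 0.18); the overexpressers overlapped each other, LBD38OX overlapped lbd38, and lbd37 overlapped replete wild type. AT1G06830 was highest in LBD38OX (10.02 ± 0.18), LBD37OX (9.84 ± 0.24) and depleted wild type (9.59 ± 0.04), and all 9 arrays without nitrogen exceeded all 9 with it. For AT5G18600 the arrays with nitrogen were the high ones, with means of 9.72 ± 0.04 in lbd38, 9.69 ± 0.13 in lbd37 and 9.68 ± 0.25 in replete wild type that overlapped one another. Depleted wild type (6.51 ± 0.14) was next, and LBD38OX (5.89 ± 0.26) and LBD37OX (5.84 ± 0.14) overlapped at the bottom.

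**Figure D4:**
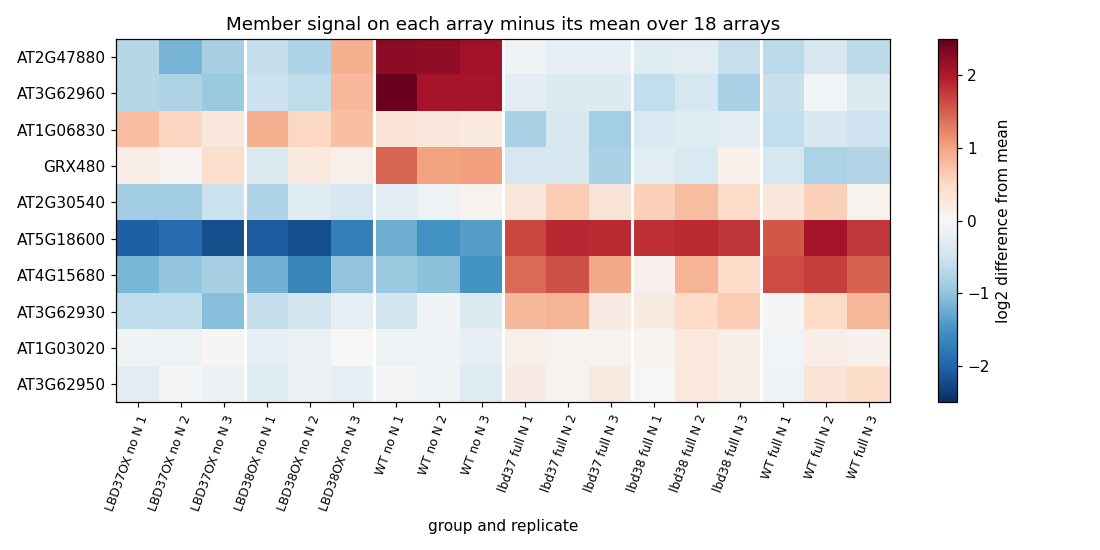
Signal of the 10 genes (rows) on each of the 18 arrays (columns, by group and replicate) as the log2 difference from the gene's own mean over all arrays, from blue (below) to red (above). AT2G47880 and AT3G62960 are red in depleted wild type and in LBD38OX replicate 3, and AT5G18600 and AT4G15680 are blue without nitrogen and red with it.

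As a description over the same 18 arrays, which share the regime and genotype structure, AT2G47880 and AT3G62960 had a Pearson correlation of 0.982, AT5G18600 and AT4G15680 of 0.931, and AT5G18600 and AT1G06830 of -0.929. Outside the 10 genes, 13503 probe sets with a single listed gene were ranked by this correlation. The most alike were AT1G22160 (0.963) and the lectin gene EULS3 (0.954) for AT2G47880, and the temperature-induced lipocalin gene TIL (0.966) and AT5G02580 (0.955) for AT3G62960. For GRX480 they were AT3G60450 (0.948) and SWEET13 (0.945), which encodes a sugar exporter. The most alike to AT1G06830 were CHIL (0.977), a chalcone isomerase-like gene of flavonoid synthesis, and AT1G73630 (0.974), and to AT2G30540 they were AT5G11420 (0.938) and AT5G48490 (0.928). AT5G18600 was followed most closely by AT3G59980 (0.991) and by ty2 (0.989), the gene of thioredoxin Y2. AT4G15680 was followed by its tandem neighbour AT4G15700 (0.975) and by AT1G09010 (0.973), and AT3G62930 by AT1G71695 (0.967) and AT2G37500 (0.941). For the dim genes the values were lower, with AT4G01270 and AT2G39390 (both 0.891) for AT1G03020, and AT2G28620 (0.871) and AT4G31460 (0.869) for AT3G62950.

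Of 11 further CC-type genes listed, 7 had a probe set of their own, and in depleted wild type 2 of these were higher and 5 lower. Over all probe sets, 23.5% were higher and 26.6% lower in that comparison. AT4G33040 read 11.05, 11.06 and 10.85 in depleted wild type, against 7.44, 7.51 and 7.51 in replete wild type, which was 11.3-fold higher (log2 3.50, adjusted p = 3.01e-11). AT5G11930 read 8.94, 8.57 and 8.43 in depleted wild type, against 5.72, 5.86 and 5.73 in replete wild type, which was 7.33-fold higher (log2 2.87, adjusted p = 2.29e-11). Both were cleanly separated by regime. In LBD37OX, AT4G33040 was 3.11-fold lower than in depleted wild type (log2 -1.64, adjusted p = 3.02e-06) and AT5G11930 1.95-fold lower (log2 -0.96, adjusted p = 6.76e-05). In LBD38OX, AT4G33040 was 2.91-fold lower (log2 -1.54, adjusted p = 6.42e-06) and AT5G11930 2.02-fold lower (log2 -1.02, adjusted p = 3.66e-05). AT5G11930 was also lower in lbd37 than in lbd38 (log2 -0.62, adjusted p = 0.0152), a call lost without lbd37 replicate 2 (adjusted p = 0.105), lbd38 replicate 1 (0.0715) or lbd38 replicate 3 (0.0522).

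ROXY1, which controls petal number, fell in depleted wild type (log2 -0.47, adjusted p = 0.000983) and was higher in LBD37OX than in depleted wild type (log2 0.50, adjusted p = 0.0027). The LBD37OX call was lost with the 2 compared groups fitted alone (adjusted p = 0.0539). In LBD38OX ROXY1 was also called higher (log2 0.32, adjusted p = 0.0406), but not without any 1 of the 6 arrays compared, with adjusted p up to 0.14. ROXY2, which acts with ROXY1 in anther development, lay below the lower quartile on all 18 arrays, and its depletion call (log2 -0.22, adjusted p = 0.0496) was lost when quantile normalization was repeated (-0.13, adjusted p = 0.249). Over all 17 CC-type genes measured, 6 were higher and 11 lower in depleted wild type, 1 was higher and 7 lower in LBD37OX, and 2 were higher and 6 lower in LBD38OX. Of all probe sets, 23.5% were higher and 26.6% lower in depleted wild type. In LBD37OX 7.21% were higher and 11.3% lower, and in LBD38OX 9.26% and 8.66%. The 11 lower genes include the measured tandem genes, whose readings may not be independent. They also include the dim genes AT1G03020, AT3G62950 and ROXY2.

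The other classes of glutaredoxin, CPYC and CGFS, serve general thiol reduction and iron-sulfur cluster handling. Of 10 listed genes 5 were measured, and in depleted wild type 4 were higher and 1 lower. Over all probe sets, 23.5% were higher and 26.6% lower in that comparison. GRXC1 was 2.15-fold higher (log2 1.11, adjusted p = 9.14e-09) and GRXC2 2.06-fold higher (log2 1.04, adjusted p = 6.89e-10) in depleted wild type than in replete wild type, and AT2G20270 was 1.67-fold lower (log2 -0.74, adjusted p = 1.45e-07). AT1G77370 was 1.66-fold higher (log2 0.73, adjusted p = 5.9e-07). The smallest of the 4 rises (log2 0.16, adjusted p = 0.0422) lost its call under several settings, with adjusted p up to 0.131. In LBD37OX 0 of the 5 genes were higher and 3 lower, and in LBD38OX 0 were higher and 4 lower, with GRXC1 at -0.44 in LBD37OX (adjusted p = 0.00198) and -0.51 in LBD38OX (adjusted p = 0.00046). Some settings lost the calls of GRXC2 in LBD37OX (adjusted p up to 0.0988) and AT1G77370 in LBD38OX (up to 0.133). The calls of AT2G20270 were also lost under some settings, with adjusted p up to 0.245 in LBD37OX and 0.133 in LBD38OX. The remaining gene was called lower in LBD38OX under some settings, with array weights at adjusted p = 0.0273. Of all probe sets, 11.3% were lower in LBD37OX and 8.66% in LBD38OX.

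Around the members' known partners, few genes were measured. Of 6 genes listed for CEP and CEPD signalling, 1 was measured, AT4G32950, a phosphatase gene known to be induced by CEPD polypeptides in roots. It read 11.44, 11.05 and 10.84 in depleted wild type, against 7.19, 6.98 and 6.97 in replete wild type, and was 16.8-fold higher (log2 4.07, adjusted p = 2.66e-12). It was 2.65-fold lower in LBD37OX than in depleted wild type (log2 -1.41, adjusted p = 6.84e-06) and 2.06-fold lower in LBD38OX (log2 -1.04, adjusted p = 0.000134), so it stayed above every replete wild-type array in both. None of 11 listed TGA and TOPLESS genes had a probe set of its own, and these are not analysed here.

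Of 7 genes listed for the salicylate response around GRX480, 1 was measured, PDF1.2, the defensin gene that overexpressed GRX480 is known to repress. In depleted wild type, where GRX480 rose, PDF1.2 read 5.13, 5.53 and 5.50, against 4.61, 4.30 and 4.33 in replete wild type. All 3 depleted arrays were higher, but the difference was not called (log2 0.97, adjusted p = 0.0641), although it was when quantile normalization was repeated (adjusted p = 0.0478) and with those groups fitted alone (adjusted p = 7.98e-05). PDF1.2 read 9.41, 7.94 and 8.41 in LBD37OX and 7.15, 7.34 and 5.79 in LBD38OX, against 5.13, 5.53 and 5.50 in depleted wild type. All overexpresser arrays were above wild type, LBD37OX by 9.17-fold (log2 3.20, adjusted p = 3.87e-05) and LBD38OX by 2.59-fold (log2 1.37, adjusted p = 0.0298). The LBD38OX call was lost without wild-type replicate 1, 2 or 3, or LBD38OX replicate 1 or 2, with adjusted p up to 0.136, and also with trend and robust eBayes (0.0777) and with array weights (0.103). In lbd38, where GRX480 was not called, PDF1.2 read 6.66, 6.24 and 8.13, against 4.61, 4.30 and 4.33 in replete wild type (log2 2.60, 6.04-fold, adjusted p = 0.00356). PDF1.2 lay below the lower quartile on all 3 replete and 1 depleted wild-type arrays, where the signal may not follow the transcript. It also varied within groups, with an SD of 0.75 in LBD37OX, 0.84 in LBD38OX and 0.99 in lbd38. The size of its folds is therefore uncertain.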

How the data were processed

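Biotin-labelled RNA of 18 samples was hybridised to single-colour Affymetrix ATH1 arrays. The deposited values are log2 signals made by the authors with RMA, per the submitters' processing notes; its version, the summary's probe definitions and the genome build are not given in the sources used here. They were not renormalised. The table holds 22810 probe sets, of which 64 controls were left out. Probe sets were named from the platform's gene table and RefSeq's TAIR10.1 gene table; 13513 list 1 gene. No detection calls or scan batches were used, and 3 arrays a group limit the precision. Promoter and protein sequences were not used here.

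Group means of all 6 groups were fitted to all probe sets with limma 3.58.1 (lmFit, eBayes) in R 4.3.3, giving 12 residual degrees of freedom, and p-values were adjusted by Benjamini-Hochberg within each of 9 comparisons. The script was tested on simulated data. The labels call the replicates biological but do not name separate cultures, so the p-values reflect only the spread among these samples, which may be technical. All 10 members were named, with the 2 most correlated probe sets each, every measured gene of the further CC-type list and at most 4 genes of each other list (largest depletion change). The rule for the members uses no measured value, but members and lists were chosen with earlier results of these data known. Alternatives were a replicate block, repeated quantile normalization, median centring, leaving out the dimmest 40% of probe sets, fits of the compared groups alone, trend and robust eBayes, array weights, single-gene probe sets alone, stricter thresholds and leaving out each array.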

Additional observations from a re-analysis of the deposited data

Results flagged for a closer look

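The response of AT4G15680 to the LBD mutations differed between the mutants, both grown with full nitrogen: lbd37 minus lbd38 was 0.84 on the log2 scale, with 8.29 ± 0.33 in lbd37 and 7.45 ± 0.37 in lbd38 (SD, n = 3 each; limma, adjusted p = 0.0303). Each mutant's own difference from replete wild type was -0.28 for lbd37 (adjusted p = 0.831) and -1.12 for lbd38 (adjusted p = 0.00749). Since wild type is the same for both, the contrast between the mutants is the test of this difference. It was no longer called when any 1 of 4 mutant arrays was left out, with adjusted p up to 0.181.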

How the results depend on the processing

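No value of the 10 genes changed sign in a called comparison. Leaving out 1 array gave 540 values for the members, of which 513 kept their side of the threshold, 22 lost and 5 gained a call; the other alternatives gave 693 values, with 683 kept, 3 lost and 7 gained. Leaving out 1 array moved the number of members called between 7 and 10 for depletion, 5 and 6 for LBD37OX, 4 and 6 for LBD38OX, 0 and 1 for lbd38 and for lbd37 against lbd38, 6 and 7 for depleted LBD37OX and 7 and 8 for depleted LBD38OX against replete wild type. It stayed at 0 for lbd37 and for LBD37OX against LBD38OX. Over all 22746 probe sets the number called then lay between 9931 and 11353 for depletion. It lay between 2736 and 4822 for LBD37OX and between 2603 and 3539 for LBD38OX. For lbd38 it was 120 to 266, and for lbd37 against lbd38 292 to 388. Against replete wild type it was 8022 to 8916 for depleted LBD37OX and 7892 to 9078 for depleted LBD38OX. For lbd37 it was 11 to 50, and for LBD37OX against LBD38OX 8 to 741. A minimum of 2-fold left 5 members for depletion, 2 for LBD37OX, 3 for LBD38OX, 3 for depleted LBD38OX against replete wild type and 0 for lbd37 against lbd38. Of all 22746 probe sets it left 2290, 385, 430, 1313 and 71 in these comparisons, in that order. For depletion an adjusted p under 0.01 left 7 members and 8880 of all probe sets. For lbd37 against lbd38 it left 0 members and 241 of all probe sets. Array weights gave 2 members for lbd37 against lbd38, adding AT1G06830 (-0.43, adjusted p = 0.00484), and 1882 of all probe sets. The cause was not tested. Leaving out the dimmest probe sets kept 7 of the 10 members and 13647 of all probe sets. Whether replicate numbers pair the arrays was not settled, because correlations of deviations were only described. Same-numbered arrays gave 45 correlations between -0.251 and 0.26, with 15 over 0.1. An array correlated best with its own number in 39 of 90 comparisons, each among 3 arrays. With the replicate number as a block, LBD38OX had 6 members called instead of 5 (AT2G30540, adjusted p = 0.0466), and depletion 10, LBD37OX 5 and lbd38 1, as without it. Of all probe sets, 18.6% were called with the block for LBD38OX, 50.9% for depletion, 19.4% for LBD37OX and 1.35% for lbd38. With no detection calls, signals below the lower quartile (AT1G03020, AT3G62950) are the least certain.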

Other observations

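Of 4 genes listed for the supply of glutathione, the electron donor of most glutaredoxins, 2 were measured. Both encode reductases that keep glutathione reduced. In depleted wild type GR1, a cytosolic glutathione reductase, was 1.71-fold higher (log2 0.78, adjusted p = 1.28e-07) and AT3G54660, the organellar glutathione reductase, 1.51-fold lower (log2 -0.60, adjusted p = 6.15e-05) than in replete wild type. Neither was called in LBD37OX. In LBD38OX GR1 was not called, and AT3G54660 was not called (log2 0.28, adjusted p = 0.0585) but passed under 6 other settings, with adjusted p between 0.00822 and 0.0498, and without LBD38OX replicate 2 (adjusted p = 0.0415). Of 9 type-A response regulators, cytokinin-induced repressors of cytokinin signalling, 2 were measured. ARR15 was lower in depleted than in replete wild type (log2 -0.64, adjusted p = 3.68e-05), while ARR16 was not called there (log2 -0.03, adjusted p = 0.901).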
